A study of Ovis aries with 44 samples.

Results

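METTL21E belongs to a family of enzymes that transfer methyl groups from S-adenosylmethionine to lysines of non-histone proteins. In the mouse its counterpart is a skeletal muscle protein that methylates the ATPase VCP and has been linked to the protection of fibers against atrophy, and the close relatives METTL21A and VCPKMT methylate Hsp70 chaperones and VCP. In the bovine annotation of the array METTL21E carried the provisional name LOC513822 (Entrez Gene 513822). The probe-gene table assigned it to 2 probe sets, Bt.26750.1.S1_at and Bt.26750.2.A1_at, here called the first and the second, of 24016 that were tested, and both were measured in all 22 lambs. It was thus 1 of 9155 genes with a probe set of their own. The gene was selected on the difference between callipyge and normal lambs in these same arrays, so that difference is given as a description without a test.

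The callipyge mutation causes postnatal hypertrophy of loin and leg muscles in lambs that inherit it from the sire alone (+/Cpat), whereas lambs with the allele from the dam alone (Cmat/+) or from both parents (C/C) look normal. The RNA came from the semimembranosus, a hindlimb muscle that enlarges in callipyge lambs, with a separate bovine Affymetrix array for each lamb. Callipyge (+/Cpat) and normal (+/+) lambs were sampled at 10, 20, 30 and 80 d, with 2 lambs of each genotype at each age, and 3 Cmat/+ and 3 C/C lambs were sampled at 30 d only. No other allele or treatment is given in the labels, the lambs came from planned matings, and sheep RNA was read with probes designed for cattle. Levels are RMA values on the log2 scale, in which a difference of 1 is a doubling, and a level cannot be compared between genes because probes differ in response.

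The muscle genes ACTA1, CKM, DES and TNNT3 were bright in every lamb, from 12.39 to 14.78 against a median of 5.35 over all probe sets. The first lambs of both genotypes at 20 d had dim arrays, with a median MAS5 intensity of 11.5 and 13.3 against 14.3 to 24.8 in the other lambs, and their RMA values were distributed like those at 30 d. DLK1, an imprinted gene beside the mutation whose transcript abundance marks the paternal allele, checked the genotype labels. It ranged from 10.97 to 11.98 in the 8 +/Cpat lambs and from 8.47 to 9.54 in the 8 +/+ lambs. It was 9.70, 10.39 and 10.44 in C/C lambs and 9.21, 9.56 and 11.02 in Cmat/+ lambs, so the third Cmat/+ lamb lay in the range of the +/Cpat lambs.

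METTL21E was higher in callipyge than in normal muscle at every age on the first probe set. At 10 d the first probe set read 10.37 in both +/Cpat lambs and 8.44 and 9.15 in the +/+ lambs. At 20 d it read 9.86 and 10.10 in +/Cpat lambs and 8.88 and 8.33 in +/+ lambs. The lambs of the genotypes did not overlap at either age. At 30 d the +/Cpat lambs read 10.48 and 10.34 and the +/+ lambs 8.78 and 7.54. At 80 d the values were 9.63 and 9.72 in +/Cpat lambs and 7.03 and 7.54 in +/+ lambs. The lowest +/Cpat lamb of all ages therefore lay above the highest +/+ lamb of all ages. Both +/Cpat lambs were above both +/+ lambs at all 4 ages in 170 of 24016 probe sets (0.708%), and from that count nothing is read about a gene selected on the same contrast.

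The second probe set was dimmer and gave the same order except in the first +/Cpat lamb at 20 d. The second probe set read 9.06 and 9.16 in +/Cpat and 7.74 and 8.10 in +/+ lambs at 10 d. At 20 d it read 7.55 and 9.14 in +/Cpat lambs and 7.70 and 7.56 in +/+ lambs. The 7.55 belongs to a dim array, and it was the only +/Cpat value of this probe set that did not lie above the normal lambs of its age. At 30 d the readings were 9.71 and 9.62 in +/Cpat and 7.98 and 7.13 in +/+ lambs. At 80 d they were 8.67 and 8.64 in +/Cpat and 6.50 and 6.96 in +/+ lambs. Callipyge lambs were again separate from normal lambs at these ages.

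**Figure D1:**
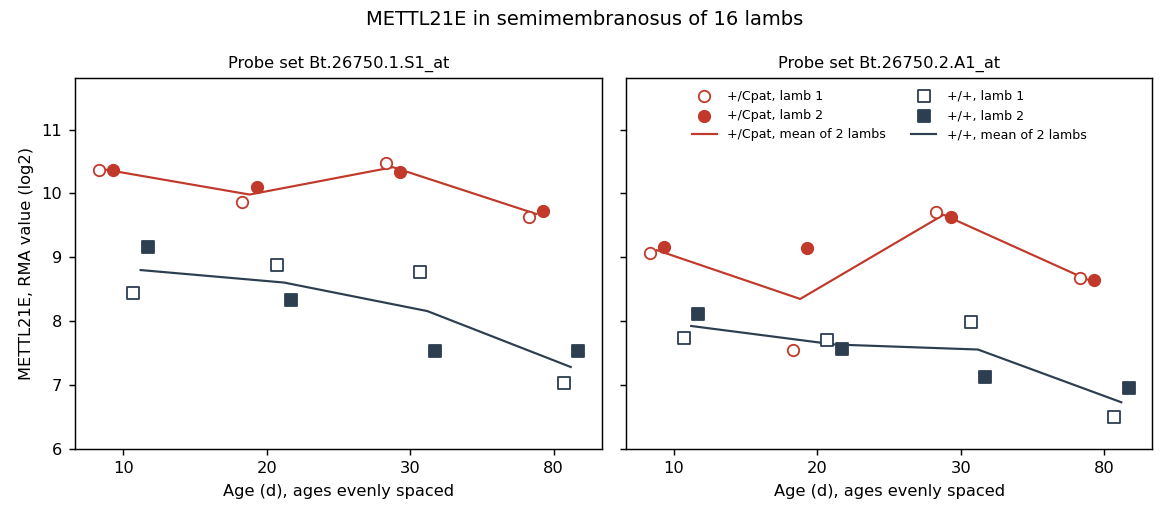
RMA values of METTL21E (log2) by age for 2 probe sets, with 1 point for each of 16 lambs (open, first lamb; filled, second lamb) and lines through the means of 2 lambs. All +/Cpat points lie above all +/+ points of the same age on both panels except the first +/Cpat lamb at 20 d on the second panel, at 7.55.

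Averaged over the 4 ages, the first probe set was 1.90 higher on the log2 scale in +/Cpat lambs (SE 0.164, n = 8 and 8), a 3.73-fold difference, and ranked number 4 of 24016 probe sets by the size of the rise. The second probe set was 1.48 higher (SE 0.187), a 2.8-fold difference, and ranked number 10. By age the difference on the first probe set was 1.57, 1.38, 2.25 and 2.40 from the youngest to the oldest lambs. On the second it was 1.19, 0.71, 2.11 and 1.92. The pooled SD between lambs of a group was 0.41 and 0.476, so each single difference exceeded it. Without the first lambs at 20 d, the average difference of both probe sets stayed within 1 such SD of these values.

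The MAS5 intensities, which were read from the same images without RMA, showed the same separation on the first probe set and a wide scatter on the second. Unscaled intensities of the first probe set were 1024.9 and 987.6 in +/Cpat lambs and 270.6 and 349.5 in +/+ lambs at 10 d. The separation was narrow at 20 d, with 238.3 and 857.6 in +/Cpat lambs and 214.5 and 230.6 in +/+ lambs. There 238.3 and 214.5 came from the dim arrays. At 80 d the unscaled intensities were 476.3 and 679.5 in +/Cpat lambs and 111 and 113.9 in +/+ lambs. After scaling of the arrays the average difference was 2.03 (4.09-fold) for the first probe set and 1.68 (3.21-fold) for the second, on the log2 scale of the scaled intensity plus 16. The first probe set read 7.4 and 10.5 times the second in the dim 20 d arrays, and 1.32 to 3.58 times in the other 20 lambs. In those arrays the second probe set had an unscaled intensity of 22.8 in the +/Cpat and 29 in the +/+ lamb. In RMA values the dim +/+ array read 7.70 on this probe set, above the 7.56 of the other +/+ lamb at 20 d. The part of the array in the low callipyge value was not tested.

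Ordering the 10 groups by the mean of both probe sets put the 4 callipyge groups on top. The +/Cpat lambs at 30 d had the highest mean, 10.04, followed by those at 10 d with 9.74. The 30 d arrays belong to the set with the higher mean RMA value, so the order of these ages cannot be told apart from the array set, and in MAS5 values of the first probe set 10 d was the higher (12.80 against 12.75 at 30 d). At 20 d and 80 d the +/Cpat means were 9.17 and 9.17, and the lambs of these groups overlapped, with an SD of 0.647 at 20 d. Next came +/+ lambs at 10, 20 and 30 d with 8.36, 8.12 and 7.86, then Cmat/+ at 7.86, C/C at 7.45 and, lowest, +/+ at 80 d with 7.005. None of these lower 6 groups was separate from its neighbor in the order. The gap of 0.804 between the lowest callipyge group and the highest of the others was wider than the gap between any other neighbors.

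Age was a contrast that the selection had not used. Both probe sets changed with age in the moderated F-test of limma on 16 arrays, with an adjusted p of 0.0221 for the first probe set and 0.0577 for the second probe set at a threshold of 0.1. In the mean of both genotypes the level at 80 d was 1.10 below that at 10 d for the first (SE 0.232) and 0.83 below for the second (SE 0.264). The difference between these ages was -1.52 and -1.19 in +/+ lambs and -0.69 and -0.46 in +/Cpat lambs, as values of single groups without a test. The lambs at 80 d were below those at 10 d in both genotypes on both probe sets in RMA values. Of all single probe sets 7.35% showed this order. Over the 16 arrays 6180 of 24016 probe sets (25.7%) passed the same threshold, a count that includes any difference between array sets. It was 922 without the 30 d arrays and 2 in MAS5 values. For METTL21E the call did not hold when each probe set kept its own variance (adjusted p = 0.13 and 0.215) or in MAS5 values (0.503 and 0.607). Without the 30 d arrays, which differ as a set from most other arrays in mean RMA value (5.66 to 5.70 in 12 arrays at 30 d or dim, 5.50 to 5.52 in 10), adjusted p was 0.018 for the first and 0.22 for the second probe set. In the 10 arrays of the other set alone, those at 10 and 80 d and of the second lambs at 20 d, it was 0.0268 and 0.0352 in a model of genotype plus age.

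Whether the callipyge difference widened with age was not resolved on these arrays. The study's quantitative PCR of this gene in the semimembranosus used further lambs and ages. It gave significant effects of genotype and of age and no significant interaction. On the arrays the difference grew by 0.83 (SE 0.464) between 10 and 80 d on the first probe set and by 0.74 (SE 0.528) on the second. On the first it was 0.47 without the second and 1.18 without the first +/+ lamb at 10 d. In limma's F-test of the genotype by age interaction the unadjusted p was 0.117 and 0.063 and the adjusted p was 1 for both. No probe set of 24016 was called for the interaction, while 783 had an unadjusted p under 0.05. Leaving out the second +/Cpat lamb at 20 d, so that only the dim array stood for its group, gave 150 calls, with an adjusted p of 0.0525 for the second probe set.

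At 30 d the 4 genotypes were compared, and METTL21E was high in the lambs with the paternal allele alone. The +/Cpat values of 10.48 and 10.34 on the first probe set stood beside 8.46, 8.41 and 7.99 in Cmat/+ lambs and 7.21, 7.90 and 8.41 in C/C lambs. On the second probe set the +/Cpat values of 9.71 and 9.62 stood beside 7.65, 7.28 and 7.34 in Cmat/+ lambs and 6.42, 7.07 and 7.67 in C/C lambs. Both +/Cpat lambs were above all 8 other lambs on both probe sets, in RMA and in MAS5 values. Among single probe sets in RMA values alone, 738 of 24016 (3.07%) showed this order. The share that showed it in both kinds of values, or on every probe set of a gene, was not counted. The C/C lambs, which carry the allele from both parents, differed from the +/Cpat lambs by -2.57 and -2.61 on the log2 scale, a 5.94-fold and a 6.12-fold difference. Cmat/+ lambs differed from +/+ lambs by 0.13 and -0.13. These differences share lambs with the contrast the gene was selected on and have no test.

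**Figure D2:**
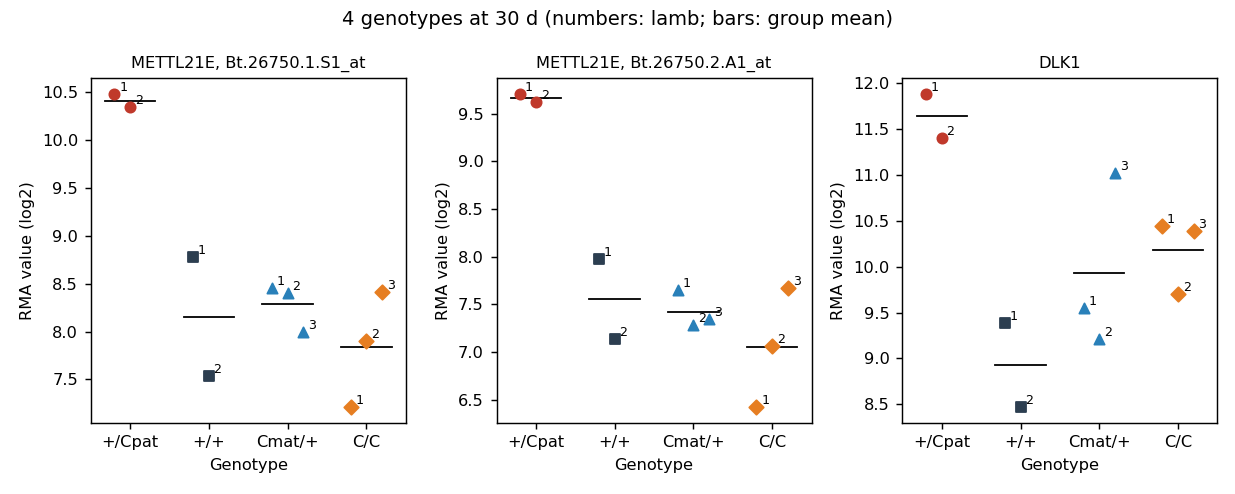
RMA values (log2) of both METTL21E probe sets and of DLK1 in 10 lambs at 30 d, with numbers for the lamb and bars for the group mean. Both +/Cpat lambs lie above the other 8 lambs on each METTL21E panel, and the third Cmat/+ lamb has a DLK1 value of 11.02 with METTL21E values of 7.99 and 7.34.

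The comparison of C/C with Cmat/+ used lambs that had no part in the selection. It asks whether a paternal allele raised METTL21E when a maternal allele was also present. C/C minus Cmat/+ lambs gave a difference of -0.44 on the first probe set (95% interval -1.16 to 0.27) and of -0.37 on the second probe set (-0.999 to 0.256). The limma adjusted p was 0.946 for both, and exact two-sided permutation tests of 3 against 3 lambs gave p = 0.3 and p = 0.5, where 0.1 is the smallest p they allow. The lambs of the groups overlapped on both probe sets. No probe set of 24016 was called in this contrast (0%), with or without limma's sharing of variance between probe sets, while 1187 had an unadjusted p under 0.05. Single lambs moved these differences. Without the first C/C lamb they were -0.13 (SE 0.308) and -0.06 (SE 0.247), without the third C/C lamb -0.73 and -0.68, and without the third Cmat/+ lamb, whose DLK1 value was high, -0.59 and -0.41.

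METTL21E and DLK1 were both high in +/Cpat lambs. Across 22 lambs r was 0.684, as a description over lambs that share genotype and array set, and across the residuals from the group means it was -0.031. The C/C lambs had DLK1 values from 9.70 to 10.44, above all +/+ lambs. Their METTL21E values, as the mean of both probe sets, were 6.82 to 8.04, within the range of the +/+ lambs of all ages (6.76 to 8.63). The third Cmat/+ lamb combined a callipyge-like DLK1 value with METTL21E values that were low on both probe sets.

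**Figure D3:**
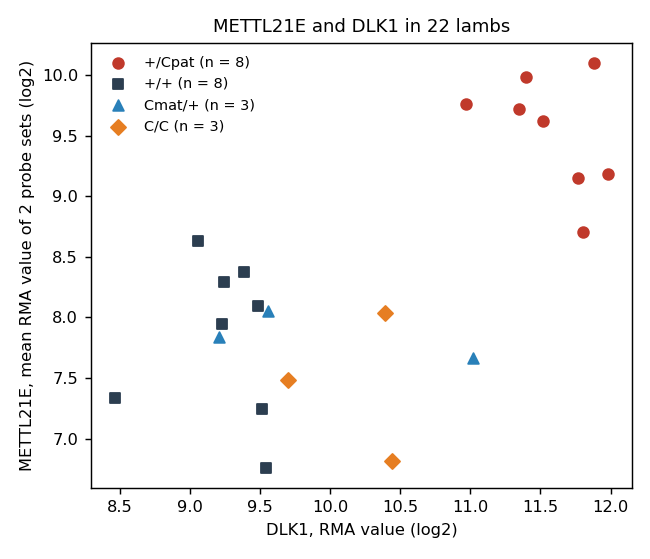
Mean RMA value of the METTL21E probe sets against that of DLK1 (log2) in 22 lambs, with 1 point for each lamb and a symbol for each genotype. The 8 +/Cpat lambs lie apart at the upper right. The C/C lambs and the third Cmat/+ lamb lie to the right of the +/+ lambs, with METTL21E values within the +/+ range.

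The probe sets of METTL21E followed each other across the lambs, with r = 0.939 over 22 lambs, 0.743 for residuals from the group means and 0.984 without the first lambs at 20 d. The 5 genes most like METTL21E over 22 lambs, among 9154 compared, were taken by r with the mean of its probe sets, and no p is given because lambs share genotype, age and array set. PARK7, a redox-sensitive protein also called DJ-1, was closest with r = 0.906. It ranged from 11.69 to 12.26 in +/Cpat lambs and from 10.66 to 11.29 in +/+ lambs, and C/C lambs read 10.99 to 11.14. CRABP2, which carries retinoic acid to its nuclear receptor, followed with r = 0.89, from 6.60 to 7.96 in +/Cpat and 5.81 to 6.44 in +/+ lambs. Then came PCTP, a phosphatidylcholine transfer protein, with 0.874, CDK2AP1, an inhibitor of the cell cycle kinase CDK2, with 0.857, and RPS6KA3, a kinase downstream of ERK, with 0.84. At 30 d each of these 5 genes had a higher mean in +/Cpat lambs than in the other 3 genotypes. The choice by r used these same lambs, so nothing further is read from that order. In the study's quantitative PCR of this muscle, PARK7 differed by genotype. RPS6KA3 showed no significant effect of genotype there, but a significant interaction of genotype with age.

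The 5 genes with the most opposite pattern had r from -0.858 to -0.821. ATP2A2, the calcium pump of slow fibers, had the lowest r, -0.858 on a probe set other than the brightest, which ranged from 7.99 to 8.38 in +/Cpat lambs and from 8.46 to 9.55 in +/+ lambs. TST, a mitochondrial sulfurtransferase, had r = -0.847, DDO, which oxidizes D-aspartate, -0.838, ECH1, an enzyme of fatty acid oxidation, -0.822, and COQ8A, needed for coenzyme Q, -0.821. In the study's quantitative PCR of this muscle, COQ8A (there named CABC1) differed by genotype, while ECH1 did not at the single age assayed. Within groups the closest genes were others. The residuals of METTL21E went with those of SLC25A12, the mitochondrial aspartate-glutamate carrier (r = 0.895), the complex I genes NDUFAB1 (0.887) and NDUFC2 (0.878), CHGA (0.84) and the import gene TIMM21 (0.828). These 5 had r from -0.101 to 0.153 before the group means were removed, and without the first lambs at 20 d their residual r was 0.778 to 0.865. They were picked as the highest of 9154 genes on these residuals, so the second range is no independent check. The r that chance alone would give was not estimated.

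For the other methyltransferases of non-histone proteins the counts were near the background over all genes. METTL21E itself was not tested for genotype. Of 26 such genes 17 were measured, and 0 rose and 0 fell in the test over 16 arrays (limma, adjusted p under 0.1), beside 2.11% higher and 2.56% lower among 9155 genes. At an unadjusted p under 0.05 only SMYD2 stood out, at -0.36 (SE 0.147, adjusted p = 0.298), while SETD7 differed by 0.36 (SE 0.169, adjusted p = 0.401). The median difference of the list was -0.0036 against -0.00796 over all genes. METTL21A, the nearest relative measured, read 2.65 to 2.94 in +/Cpat and 2.69 to 2.87 in +/+ lambs, among the dimmest values here, and differed by 0.04 (SE 0.0685). METTL21C, VCPKMT and SMYD1 had no probe set with that name. In the age F-test 6 of the 17 were called, SMYD2 and SETD7 among them (adjusted p = 0.0094 and 0.0113), beside 25.7% of all probe sets. Both counts include any difference between array sets.

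**Figure D4:**
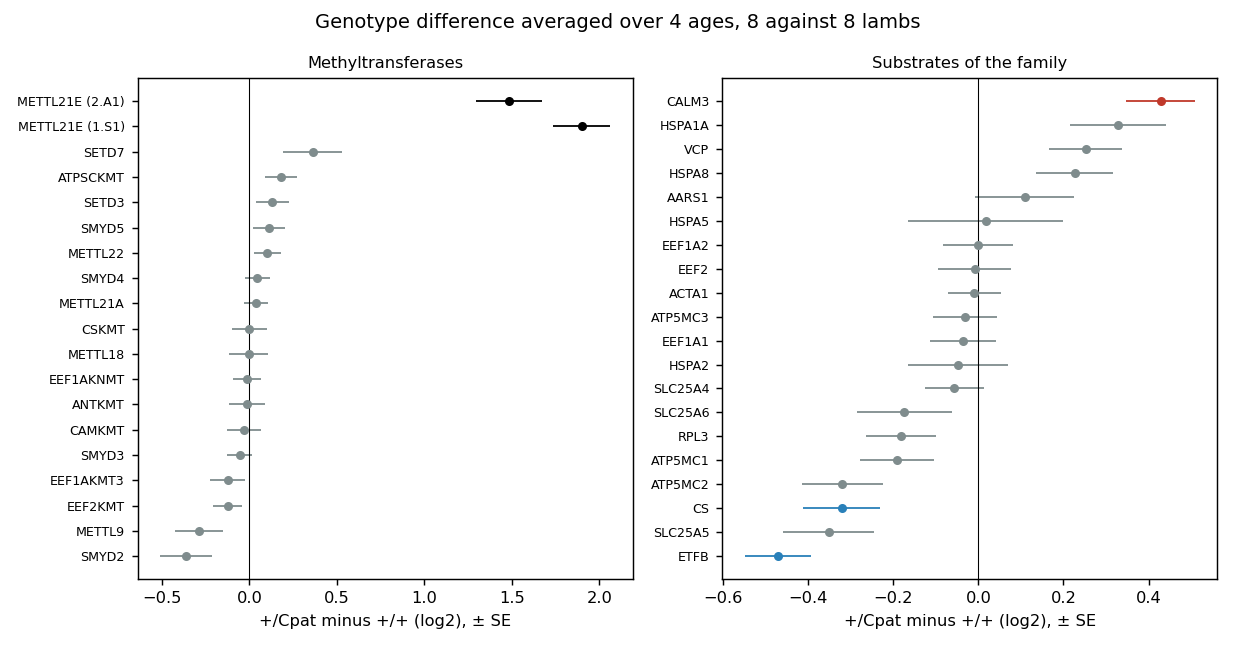
Difference between +/Cpat and +/+ lambs averaged over 4 ages (log2, 8 against 8 lambs, bars are the SE) for 17 methyltransferases with METTL21E in black, and for 20 proteins such enzymes methylate, with calls at an adjusted p under 0.1 in red (higher) and blue (lower). METTL21E lies at 1.90 and 1.48, and the other methyltransferases lie between -0.36 and 0.36.

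Among the proteins that these enzymes methylate, 20 of 26 were measured, of which 1 rose and 2 fell with genotype, with a median of -0.034, beside 2.11% higher and 2.56% lower among all genes. In lists of this size counts of 0 or 1 in a direction are near that background. None of the 3 calls held in MAS5 values. CALM3, a calmodulin gene and target of CAMKMT, rose by 0.43 (SE 0.0809, adjusted p = 0.0131). It ranged from 9.92 to 10.29 in +/+ and from 10.33 to 10.84 in +/Cpat lambs. ETFB, an electron carrier of fatty acid oxidation, fell by 0.47 (SE 0.0776, adjusted p = 0.005). Citrate synthase (CS), the target of CSKMT, fell by 0.32 (SE 0.0902, adjusted p = 0.0948). VCP, which the mouse enzyme methylates, differed by 0.25 (SE 0.0858, adjusted p = 0.187), with 10.26 to 10.79 in +/Cpat and 10.07 to 10.45 in +/+ lambs. The chaperones HSPA8 and HSPA1A differed by 0.23 and 0.33 (adjusted p = 0.29 and 0.196), so neither passed the test.

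The next 4 lists had at most 1 call in each direction, which is near the background of 2.11% higher and 2.56% lower, and none of their calls held in MAS5 values or when each probe set kept its own variance. In the cycle that supplies and recovers S-adenosylmethionine 0 of 20 measured genes rose and 1 fell. That gene was MTHFD1, an enzyme of folate metabolism, at -0.35 (SE 0.0904, adjusted p = 0.0656), and AHCY, which removes the product that inhibits methyltransferases, was at -0.31 (SE 0.149, adjusted p = 0.418). Of 37 proteasome subunits 1 rose and 0 fell, PSMB7 of the catalytic core by 0.38 (SE 0.0964, adjusted p = 0.0633), and 11 of the 37 lay below 0 at a list median of 0.112. Among 21 genes of atrophy and protein breakdown, CAST, the calpain inhibitor, rose by 0.35 (adjusted p = 0.0605) and EIF4EBP1, a brake on translation, fell by 0.68 (adjusted p = 0.0129). MSTN and FBXO32 had larger rises than CAST, 0.81 and 0.65, that were not called (adjusted p = 0.115 and 0.369). Among 13 myogenic transcription factors MEF2A alone rose, by 0.39 (adjusted p = 0.0558). The medians of these lists were 0.0202 and 0.0814.

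In callipyge muscle 8 of 15 measured slow fiber genes fell and 0 rose, 15 lay below 0 and the median was -0.52, against 2.56% of all genes lower. LDHB, the lactate dehydrogenase of oxidative fibers, fell by 1.26 (SE 0.123, adjusted p = 7.57e-05). MYL3, a slow myosin light chain, fell by 1.06 (SE 0.098, adjusted p = 5.34e-05). It ranged from 11.91 to 12.33 in +/+ and from 10.39 to 11.77 in +/Cpat lambs. TNNT1 and MYL2 fell by 0.53 and 0.59 (adjusted p = 0.00334 and 0.0129). Of 14 fast fiber genes (median 0.118) 2 rose and 0 fell, beside 2.11% of all genes higher, PFKM by 0.54 (adjusted p = 0.00268) and PGAM2 by 0.31 (adjusted p = 0.0649), both of glycolysis. In the study's quantitative PCR of this muscle, PFKM differed by genotype, while MYL3 did not at the single age assayed. Without the first lambs at 20 d, 8 slow genes were called lower and 2 fast genes higher. When each probe set kept its own variance these counts were 3 and 3, and in MAS5 values they were 2 and 0.

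For markers of other cells in the muscle the counts, at most 1 in a list, were near the background of 2.11% higher and 2.56% lower. Of 11 endothelial markers 0 were called, although all 11 lay below 0 (median -0.208; TEK at -0.27, adjusted p = 0.212), and their mean level was 6.87 to 7.88 in +/Cpat and 6.98 to 7.91 in +/+ lambs. Of 11 fibroblast markers 1 fell, COL1A1 by 0.52 (adjusted p = 0.0937), with mean levels of 7.90 to 8.96 and 8.60 to 9.02, and without the first lambs at 20 d 0 were called. Of 9 fat markers 1 fell, LPL by 1.07 (adjusted p = 3.16e-05), with mean levels of 5.88 to 6.24 and 5.92 to 6.52. Of 9 blood and immune markers 0 were called (CD14 at -0.35, adjusted p = 0.119; mean levels 5.30 to 5.85 and 5.22 to 5.92), and of 6 nerve markers 0 (S100B at -0.30, adjusted p = 0.381; 4.73 to 5.13 and 4.79 to 4.97). In whole muscle RNA fewer cells of a type and less RNA per cell cannot be told apart, and the part of fiber type or of other cells in the METTL21E difference was not tested.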

How the data were processed

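RNA of 22 lambs was hybridized to 22 arrays. The authors read the images with MAS5 in GCOS and deposited linear intensity values without scaling, and they also deposited RMA values on the log2 scale, for which background correction, quantile normalization and probe summary had been done. Versions of these tools are not given in the sources used here. Mean RMA values were 5.66 to 5.70 in the 12 arrays at 30 d or dim, and 5.50 to 5.52 in the other 10. Whether all 22 arrays were normalized together was not established. Columns were assigned to lambs from the labels.

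Group means were fitted to RMA values with limma 3.58.1 in R 4.3.3 (16 arrays for genotype, age and interaction; 10 arrays at 30 d for C/C minus Cmat/+), with Benjamini-Hochberg adjustment over 24016 probe sets, 112 controls left out, and a threshold of 0.1. MAS5 values were scaled to a trimmed mean of 500 (2% at each end), with an offset of 16 before log2. A gene of a list was represented by its brightest probe set with 1 symbol. Named were METTL21E, DLK1, the 5 genes with the highest and lowest r and the 5 with the highest residual r, and of each list up to 4 called members or otherwise the member of smallest p; any measured methyltransferase or substrate could be named. AHCY was chosen outside this rule after its values were seen. The gene, the lists and the tests were chosen with earlier results of these data known. Lambs with the same replicate number came from different animals, and over 28 pairs their deviations correlated from -0.172 to 0.315, so they were not treated as pairs. P-values measure the spread between lambs. On simulated data over 24016 probe sets, changes of 1 on the log2 scale were recovered in 97% for age, 44.8% for the interaction and 91% for C/C minus Cmat/+. These shares are averages over randomly drawn probe sets with many changes planted at once, and do not give the power for METTL21E. Its SE in C/C minus Cmat/+ was 0.326 and 0.285, and the share recovered at that spread was not estimated. The number of arrays limits the precision. Alternatives are named in the closing section. No sequence or coordinates of METTL21E were used here.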

Additional observations from a re-analysis of the deposited data

How the results depend on the processing

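The METTL21E difference between +/Cpat and +/+ lambs stayed between 1.75 and 2.05 on the first and 1.27 and 1.70 on the second probe set under all 25 alternatives, and the age difference stayed negative in all. The age call was lost in 2 of 25 alternatives for the first and 10 for the second probe set, 6 of them leaving out a lamb. The C/C minus Cmat/+ difference was called in none of 17, with values from -0.73 to -0.13 and adjusted p from 0.572 to 1 on the first probe set. Counts of called probe sets moved more, and the cause was not tested. For genotype, 784 became 248 when each probe set kept its own variance, 50 with MAS5 values and 414 without the 30 d arrays. For age, 6180 became 3385, 2 and 922 under these, 4101 with probe sets above the median level, where fewer were tested, and 1194 with 10 and 80 d and the second lambs at 20 d. For the interaction, 0 became 1 with the replicate block, without the 30 d arrays and with that last set. Leaving out 1 lamb gave 367 to 1550 for genotype, 3481 to 10693 for age, 0 to 150 for the interaction and 0 to 1 for C/C minus Cmat/+; the highest of the first 3 came without the second +/Cpat lamb at 20 d. With the replicate block, the adjusted p for age was 0.0265 and 0.0589, and no METTL21E call changed. Of the 10 genes most and least like METTL21E, 6 stayed with Spearman correlation, 5 with MAS5 values, 9 without the first lambs at 20 d (chosen after the data were seen) and 0 with residuals from group means. Slow fiber genes called lower were 2 (MAS5 values) to 11 (trended and robust prior, or probe sets above the median level), proteasome genes called higher 0 to 7 and fast fiber genes called higher 0 (MAS5 values) to 4.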
